A study of Mus musculus with 6 samples.

Results

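The 9 genes described here carry out presentation of peptides by class I molecules of the major histocompatibility complex (MHC): H2-K1, H2-D1, B2m, Tap1, Tap2, Tapbp, Psmb8, Psmb9 and Nlrc5. They were taken by gene symbol from count tables of 55809 gene rows, and all 9 were present in every library and passed the filter on low counts. Bulk polyA RNA was sequenced from mast cells of the skin of C57BL6J mouse fetuses at embryonic day 18.5, sorted for CD45, CD117 and ST2 and against F4/80 and CD64. The prenatal stress group came from dams held in tubes beneath a strong lamp for 30 minutes, 3 times daily, and the control group from dams that were not handled in this way. The restraint ran from embryonic day 13.5 to 18.5 in one description and from day 13 to 18 in another. Each group had 3 libraries, every library was a pool of 4 mice, and both sexes were used. The labels call the pools biological replicates but do not say how many litters a pool drew on, so the p-values cover only how these pools vary. The labels give the same genotype for both groups and name no other agent.

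Class I molecules show short peptides made inside the cell to CD8 T cells and to natural killer cells. Proteasomes cut proteins into peptides, the TAP transporter carries them into the endoplasmic reticulum, and tapasin holds empty class I molecules at the transporter until a peptide is bound. Nearly all nucleated cells express the pathway, mast cells included, and interferons raise it, in part through NLRC5.

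Most members lie on one chromosome: 7 of the 9 have a promoter window in the RefSeq table used here (build GRCm38.p6), and 6 of these 7 lie on chromosome 17, with B2m on chromosome 2. The 250 bases before the annotated start are shown for the genes whose levels are compared most closely below. H2-K1 (chr17:34000334-34000583, minus strand, the downstream one of its 2 annotated windows), H2-D1 (chr17:35262844-35263093, plus strand) and B2m (chr2:122147437-122147686, plus strand) encode the parts of the class I molecule itself. Tapbp (chr17:33919228-33919477, plus strand) is the member that passed the test. Tap1 (chr17:34187306-34187555, plus strand) starts 226 bases from Psmb9, which is read in the opposite direction, and their windows have 225 bases in common. Capitals mark matches, on either strand, to 4 searched motifs: the NF-kB motif that is the first run of capitals in the H2-K1 line, an interferon-response half-motif TTTCNNTT, a cyclic AMP response half-site TGACG and a CCAAT box.
H2-K1: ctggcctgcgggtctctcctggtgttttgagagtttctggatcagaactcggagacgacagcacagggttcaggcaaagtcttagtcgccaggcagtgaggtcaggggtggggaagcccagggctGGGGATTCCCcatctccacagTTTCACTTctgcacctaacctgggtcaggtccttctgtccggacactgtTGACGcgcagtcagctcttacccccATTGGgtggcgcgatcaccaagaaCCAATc
H2-D1: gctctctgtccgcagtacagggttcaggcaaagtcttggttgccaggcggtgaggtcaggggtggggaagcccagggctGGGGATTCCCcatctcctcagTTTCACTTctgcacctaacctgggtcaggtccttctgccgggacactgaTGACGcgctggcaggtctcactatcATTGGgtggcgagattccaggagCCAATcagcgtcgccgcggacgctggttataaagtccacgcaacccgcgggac
B2m: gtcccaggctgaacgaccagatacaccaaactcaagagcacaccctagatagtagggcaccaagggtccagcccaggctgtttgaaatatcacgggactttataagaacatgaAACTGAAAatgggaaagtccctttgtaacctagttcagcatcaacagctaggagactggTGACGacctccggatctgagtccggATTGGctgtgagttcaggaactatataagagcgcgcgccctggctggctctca
Tapbp: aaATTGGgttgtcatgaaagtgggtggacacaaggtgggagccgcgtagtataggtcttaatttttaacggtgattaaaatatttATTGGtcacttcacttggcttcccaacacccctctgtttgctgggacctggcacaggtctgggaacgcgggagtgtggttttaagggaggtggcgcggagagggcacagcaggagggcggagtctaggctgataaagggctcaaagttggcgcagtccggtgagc
Tap1: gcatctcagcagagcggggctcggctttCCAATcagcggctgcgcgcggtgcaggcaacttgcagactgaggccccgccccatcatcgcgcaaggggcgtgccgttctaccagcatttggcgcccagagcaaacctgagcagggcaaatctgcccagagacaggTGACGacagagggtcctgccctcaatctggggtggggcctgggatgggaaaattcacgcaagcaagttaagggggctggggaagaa

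H2-K1 and H2-D1 carried the 4 motifs in the same order, with a second CCAAT match nearest the start, and their windows were identical at 187 of 204 aligned bases (91.7%). The NF-kB motif was rare, found in 28 of 32851 windows of this length (0.0852%), and among the members only these 2 genes held it. The interferon half-motif was in 21.3% of all windows and, among the members, in those of H2-K1, H2-D1 and B2m. TGACG was in 17.8% of all windows and in those of H2-K1, H2-D1, B2m, Tap1 and Psmb9. CCAAT was in 33.8% of all windows and in those of every member with a window other than Psmb8, whose window held none of the 4. For Tap1 and Psmb9 the TGACG match and the CCAAT match are each the same bases, where their windows overlap. Both CCAAT matches of Tapbp lay over 160 bases before the start. A match is a run of letters and not a measured binding site.

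The members differed widely in level. CPM stands for the read count scaled to a common library size, here with TMM factors, and levels are compared between genes as CPM per kilobase of the longest coding transcript, with mean ± SD over n = 3 pools. B2m, the light chain shared by all class I molecules, was highest in the controls at 850 ± 49.3 CPM per kilobase. The classical heavy chain genes followed, H2-K1 at 315 ± 21.4 and H2-D1 at 299 ± 23.5, which did not differ beyond their spread. Tapbp, which encodes tapasin, was at 51.9 ± 4.15. The inducible proteasome subunit gene Psmb8 was at 26.6 ± 1.79, and Tap2, which encodes a chain of the peptide transporter, at 15.0 ± 1.56. Next were Psmb9, another inducible subunit gene, at 12.0 ± 0.734 and Tap1, the partner chain of the transporter, at 11.9 ± 0.684, again within their spread. Nlrc5, the transactivator of class I genes, was lowest at 1.49 ± 0.171. In the stress libraries the order was the same except that Psmb9, at 9.37 ± 1.28, lay below Tap1 at 11.5 ± 0.874.

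**Figure D1:**
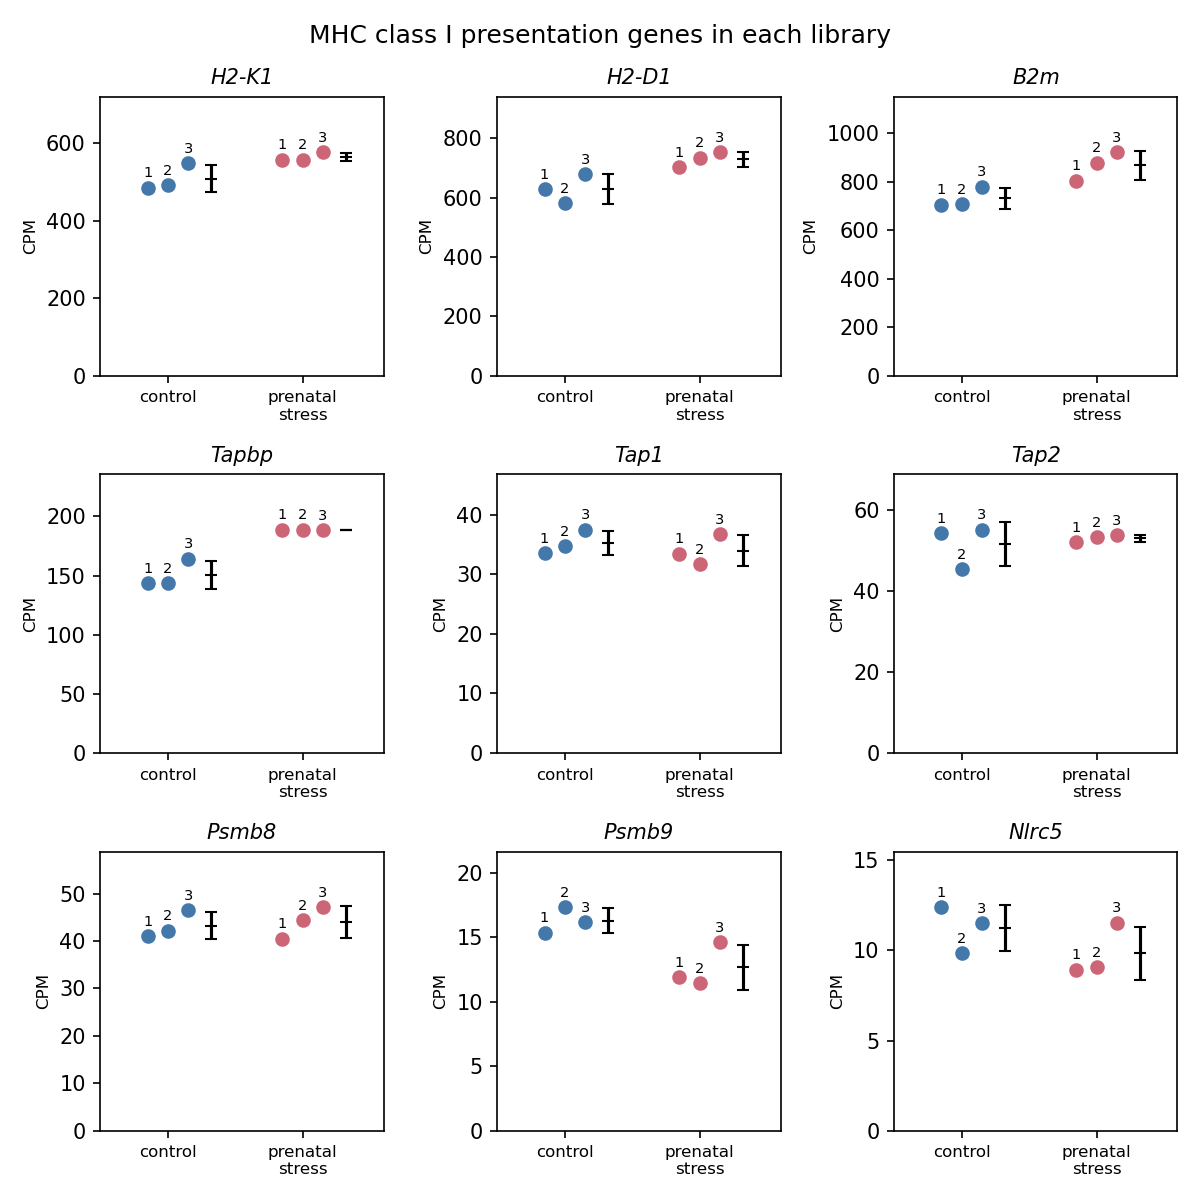
CPM (TMM-scaled read counts) of the 9 members in each library, 1 panel per gene, with control pools in blue and prenatal stress pools in red. Numbers give the replicate and the bars beside the points the mean and SD (n = 3). H2-K1, H2-D1, B2m and Tapbp lay higher in all 3 stress pools than in all 3 controls, Psmb9 lay lower, and the groups of the other 4 genes overlapped.

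Comparing prenatal stress with control asked whether the machinery of class I presentation differed in mast cells of fetuses whose dams had been restrained. Of the 9 members 1 rose, Tapbp, none fell and 8 did not pass an adjusted p of 0.05 (quasi-likelihood test of edgeR, Benjamini-Hochberg adjustment over 16716 genes). At an unadjusted p under 0.05 there were 3 higher and 1 lower, where 24.8% of all genes passed and 11.6% were lower. DESeq2 called 3 higher and 1 lower, and limma-voom 1 higher and 0 lower. Over all genes tested, 6.19% were called, 4.34% higher and 1.85% lower. The groups did not overlap in 5 of the 9 members, 4 higher and 1 lower after stress, where this was so for 30.6% of all genes (16% higher, 14.5% lower). The members' median log2 fold change was 0.04 against -0.0039 over all genes, with 6 above zero and 3 below, where 50.8% of all genes were below. Together the members took 2119, 2075 and 2340 CPM in control replicates 1, 2 and 3, and 2401, 2511 and 2604 CPM in stress replicates 1, 2 and 3. Log2 fold changes below are stress minus control, given with their standard error (SE).

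For Tapbp the control pools 1 to 3 gave 144, 143 and 164 CPM, and each of the 3 stress pools gave 189 CPM. The stress pools all lay above the controls, among which replicate 3 stood highest. The log2 fold change was 0.33 ± 0.07 (SE), with a 95% interval of 1.13 to 1.39-fold (edgeR adjusted p = 0.0277). Leaving out control pool 1 or 2 ended this call (adjusted p = 0.0973 and 0.115), as did leaving out stress pool 1 or 2 (0.0659 and 0.0976), while the log2 fold change stayed between 0.29 and 0.39. It held on leaving out pool 3 of the controls (adjusted p = 0.0317) or of the stress group (0.0149). The stress pools differed by only 0.0281% (SD over mean), less than the 0.977% to 1.03% that counting error alone gives for one library, so their closeness cannot be read as the precision of the level. Other genes overlap part of Tapbp: 24.9% of its exon bases on the opposite strand and 4.11% on the same strand, and 18.6% of its 75-base transcript windows occur in another gene. The overlapping genes were low or level, with Gm19412 at 1.24 ± 0.0586 and 1.11 ± 0.0721 CPM and Zbtb22 at 26.8 ± 0.457 and 26.5 ± 0.174 CPM in control and stress (mean ± SD, n = 3). Whether the counting used strand is not given in the sources used here. The counts of the overlapping genes do not show how many Tapbp reads lay in the shared stretches, which was not measured.

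B2m and the classical heavy chain genes H2-D1 and H2-K1 had values in the same direction as Tapbp and did not pass. B2m was at 705, 708 and 780 CPM in the controls and 805, 880 and 922 CPM in stress replicates 1, 2 and 3, with a log2 fold change of 0.25 ± 0.07 (SE, edgeR adjusted p = 0.0814). H2-D1 was at 627, 581 and 679 CPM in the controls and 702, 735 and 753 CPM after stress (0.21 ± 0.07, edgeR adjusted p = 0.11). H2-K1 was at 486, 493 and 549 CPM in the controls and 558, 558 and 577 CPM after stress (0.15 ± 0.07, edgeR adjusted p = 0.202). In all 3 genes every stress pool was above every control, and control replicate 3 was the nearest control to the stress pools. Their 95% intervals were 1.06 to 1.33-fold for B2m, 1.04 to 1.30-fold for H2-D1 and 1.00 to 1.23-fold for H2-K1. DESeq2 called B2m (adjusted p = 0.0146) and H2-D1 (0.0386) but not H2-K1 (0.14). Scaling by library totals alone, which moves the median of all genes to -0.12, gave 0.13 for B2m, 0.10 for H2-D1, 0.03 for H2-K1 and 0.21 for Tapbp, so the size of these differences is relative to TMM. There were 68.9, 69.5 and 70.4 counts of H2-K1 per 100 of B2m in the controls and 69.3, 63.5 and 62.6 after stress, a ratio chosen after its values were seen; stress replicates 2 and 3 lay below the controls and replicate 1 among them. Of the 75-base transcript windows of H2-K1 3.10% occur in other genes, mostly of the H2-Q cluster, and of H2-D1 5.56%. How many reads of either gene were lost or placed elsewhere through such stretches was not measured.

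**Figure D2:**
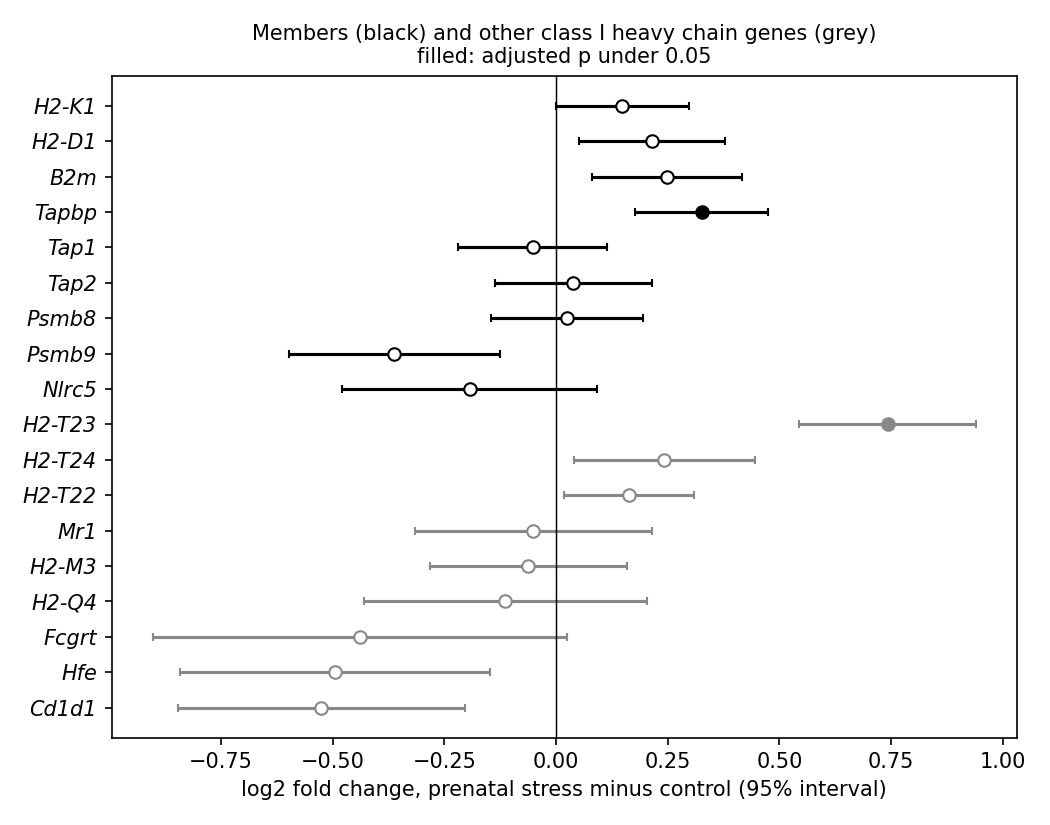
Log2 fold change of prenatal stress minus control with its 95% interval, for the 9 members (black) and the 9 other class I heavy chain genes with a mean of at least 5 CPM (grey). Filled points passed an adjusted p of 0.05: Tapbp at 0.33 and H2-T23 at 0.74.

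The transporter genes showed no difference at this number of pools. Tap1 was at 33.5, 34.7 and 37.5 CPM in the controls and 33.5, 31.6 and 36.7 CPM in stress replicates 1, 2 and 3. Its log2 fold change of -0.05 had a 95% interval from -0.22 to 0.12 (edgeR adjusted p = 0.709). Tap2 was at 54.3, 45.4 and 55.1 CPM in the controls and 52.1, 53.3 and 53.8 CPM after stress, with an interval of the log2 fold change from -0.14 to 0.21 (edgeR adjusted p = 0.801). The groups of both genes overlapped, and for Tap2 control replicate 2 was the lowest of all 6 pools. Tapasin and the transporter work in one complex, and the counts of Tapbp per 100 of Tap1 were 428, 414 and 439 in the controls against 563, 596 and 513 after stress. That ratio was chosen after its values were seen and was not tested. Of the exon bases of Tap2 18.5% are overlapped on the opposite strand by Gm15821 and Gm20496. The first was at 0 counts in every library and the second in all but control replicates 1 and 3. Such counts do not show how many Tap2 reads lay in the shared stretch.

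The inducible proteasome subunits take the place of constitutive ones in immune cells and under interferon: Psmb8 that of Psmb5, Psmb9 that of Psmb6 and Psmb10 that of Psmb7. Psmb9 was at 15.4, 17.3 and 16.2 CPM in the controls and 11.9, 11.4 and 14.6 CPM in stress replicates 1, 2 and 3. The stress pools lay below all controls, with replicate 3 closest to them, and the log2 fold change was -0.36 ± 0.10 (SE, edgeR adjusted p = 0.0746). DESeq2 called it lower (adjusted p = 0.0235), as did edgeR without stress replicate 3 (-0.48, 0.00523), with library totals (-0.48, 0.0342) and with no low-count filter (-0.37, 0.0187). With the mean of the macrophage markers as a covariate it was at -0.21 (adjusted p = 0.21). Psmb8 was at 41.1, 42.2 and 46.6 CPM in the controls and 40.6, 44.4 and 47.2 CPM after stress. Its groups overlapped across their whole range, and the 95% interval of the log2 fold change ran from -0.14 to 0.19 (edgeR adjusted p = 0.87). Gm20496 overlaps 14.7% of the exon bases of Psmb8 on the opposite strand and holds 9.97% of its 75-base windows.

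Measured within each library, which needs no scaling, there were 18.0, 20.1 and 18.6 counts of Psmb9 per 100 of Psmb6 in the controls and 15.6, 14.8 and 17.9 after stress. All 3 stress pools were below the controls, and the log2 ratio differed by -0.24 (two-sided exact test by permutation, p = 0.1, the lowest p that 3 pools a group can give, and 0.3 adjusted over 3 ratios). Psmb8 stood at 184, 178 and 210 counts per 100 of Psmb5 in the controls and 194, 198 and 217 after stress (log2 difference 0.09, exact p = 0.4, adjusted 0.4). Psmb10 was at 36.2, 38.5 and 39.1 per 100 of Psmb7 in the controls and 37.7, 37.2 and 35.7 after stress (-0.04, exact p = 0.4, adjusted 0.4). The Psmb5 counts are uncertain, since 36.8% of its 75-base windows occur in other genes, most of them in Gm3375. Psmb9 and Tap1, whose windows before the start overlap, were at 45.8, 50.0 and 43.2 counts of Psmb9 per 100 of Tap1 in the controls and 35.6, 36.1 and 39.9 after stress. The groups of this ratio, chosen after its values were seen, did not overlap. Exons of Psmb9 and Tap1 also overlap on opposite strands, over 5.79% of the exon bases of Psmb9 and 3.87% of those of Tap1.

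**Figure D3:**
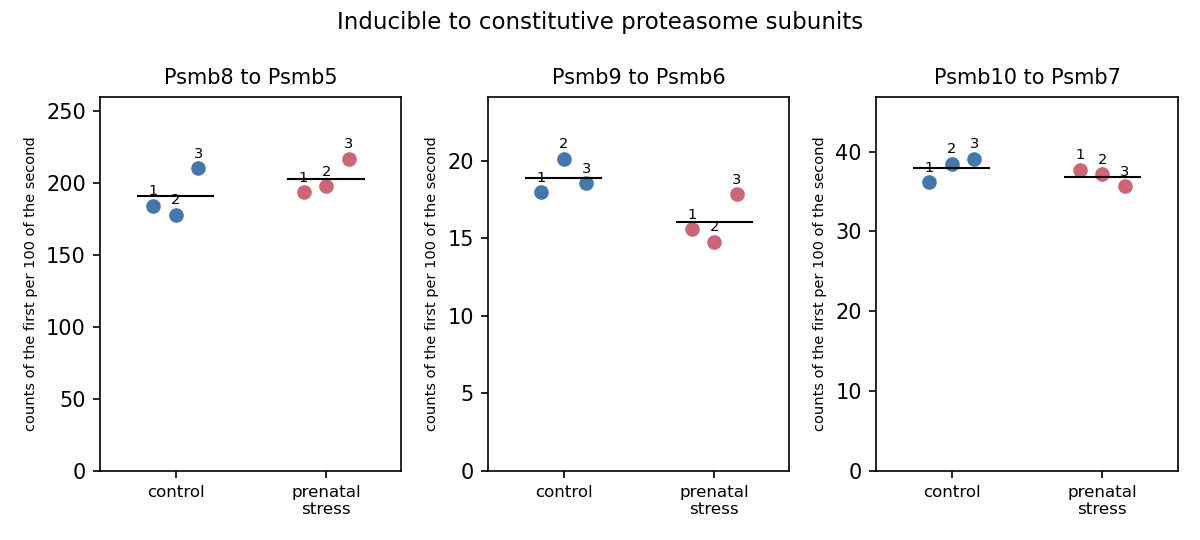
Counts of each inducible proteasome subunit gene per 100 counts of its constitutive counterpart, in control (blue) and prenatal stress (red) libraries, with the group mean as a line and the replicate number at each point. The ratio of Psmb9 to Psmb6 was lower in the 3 stress libraries (14.8 to 17.9) than in the 3 controls (18.0 to 20.1), and the other ratios overlapped.

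Nlrc5 was at 12.4, 9.85 and 11.5 CPM in the controls and 8.94, 9.06 and 11.5 CPM in stress replicates 1, 2 and 3. Stress replicates 1 and 2 were below every control and replicate 3 was among them. The log2 fold change was -0.19 with a 95% interval from -0.48 to 0.09 (edgeR adjusted p = 0.375), and without stress replicate 3 it was -0.33 (adjusted p = 0.0705).

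The libraries held 51710555 to 74735139 counts assigned to genes. As a check of the label, all 10 listed mast cell markers were measured, with a summed level of 58690 to 70921 CPM in the controls and 84976 to 102348 CPM after stress, and 5 of the 10 were called higher. The most abundant of them were Cpa3 and Cma1, at 24736 ± 2610 and 15205 ± 1422 CPM in the controls. Kit was at 1818 ± 158 and 2126 ± 220 CPM, and Il1rl1, which encodes the sort marker ST2, was called higher (1465 ± 117 and 2007 ± 219 CPM, edgeR adjusted p = 0.0312), a call that held in 1 of 6 fits without 1 library, that without stress replicate 3, and that ended with the macrophage covariate (0.31, adjusted p = 0.0877). All 16 macrophage and monocyte markers were also measured, though the sort gated against F4/80 and CD64. Their summed level was 6882, 7799 and 7822 CPM in control replicates 1, 2 and 3 and 5650, 5273 and 7948 CPM in stress replicates 1, 2 and 3. Of these markers 13 of 16 had a negative log2 fold change (median -0.30); edgeR called 1 lower (Cx3cr1) and 1 higher (Cd68), and 14 did not pass. At an unadjusted p under 0.05 there were 8 lower and 1 higher, and DESeq2 called 4 lower and 1 higher. The most abundant macrophage markers were Mrc1 and Csf1r, at 2295 ± 120 and 1215 ± 88.4 CPM in the controls. There Mrc1 lay above Kit in CPM, which is not corrected for transcript length. The 10 dendritic and Langerhans cell markers summed to 139 to 154 CPM in the controls and 125 to 168 CPM after stress, with the Langerhans cell gene Cd207 at no more than 0.288 CPM in any library. The 10 lymphoid markers, of which Ncr1 was at 0 in every library and Cd3e at 0 in the 3 stress libraries, summed to 27.4 ± 7.10 and 56.2 ± 4.60 CPM. Most of that sum was Il7r, which was called higher (22.0 ± 4.01 and 54.1 ± 4.79 CPM), while the other 3 tested genes had negative values, Cd3g the lowest at -1.80 (edgeR adjusted p = 0.0841). The lymphoid genes and Cd207 were picked out after their values were seen. The common leukocyte gene Ptprc, which encodes CD45, was at 453 ± 9.35 and 491 ± 26.1 CPM (edgeR adjusted p = 0.278). Adgre1 and Fcgr1, which encode the F4/80 and CD64 gated against, were at 409 ± 29.2 and 305 ± 87.1 CPM (0.161) and at 78.9 ± 6.27 and 66.9 ± 9.58 CPM (0.194). Without stress replicate 3 both were called lower by edgeR, Adgre1 at -0.69 (adjusted p = 0.00121) and Fcgr1 at -0.37 (0.00966), and Adgre1 was also called with no low-count filter (-0.43, 0.0173). Summed markers of fibroblasts were at 91.2 ± 12.5 and 127.7 ± 66.7 CPM in control and stress, of endothelial cells at 42.2 ± 5.92 and 43.7 ± 7.67, of neutrophils at 18.4 ± 6.80 and 20.7 ± 8.39, of erythroid cells at 12.2 ± 5.49 and 7.04 ± 0.950 and of keratinocytes at 1.39 ± 0.286 and 4.17 ± 5.12. No gene of these lists was called by edgeR; 1 fibroblast and 1 neutrophil gene were higher and 2 erythroid genes lower at an unadjusted p under 0.05, and DESeq2 called 2 erythroid genes lower. In sorted bulk RNA, fewer cells of a type and less RNA per cell cannot be told apart.

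Macrophages also express class I genes, and the macrophage list was lower in stress replicates 1 and 2 than in the other 4 libraries. Psmb9 and Nlrc5 were lowest in the same 2 libraries and nearer the controls in stress replicate 3. Tap1 was lowest there too, at 33.5 and 31.6 CPM, with stress replicate 3 at 36.7 CPM, though control replicate 1 was also at 33.5 CPM. Tap2 was lowest in control replicate 2 and Psmb8 in stress replicate 1. Among the controls Psmb9 and Tap1, like the macrophage sum, were lowest in replicate 1 (15.4, 33.5 and 6882 CPM), while Nlrc5 was highest there (12.4 CPM). H2-K1, H2-D1, B2m and Tapbp were higher in all 3 stress libraries than in all 3 controls. With the macrophage mean as a covariate, Tapbp was at 0.35 (edgeR adjusted p = 0.0391), B2m at 0.31 (0.0778), H2-D1 at 0.24 (0.163) and H2-K1 at 0.19 (0.226). In the same fit Psmb9 was at -0.21 (edgeR adjusted p = 0.21) and Nlrc5 at -0.09 (0.747). Tap1 was at 0.05 there (edgeR adjusted p = 0.77), against -0.05 without the covariate, Tap2 at 0.03 (0.886) and Psmb8 at 0.10 (0.528). The part of macrophage RNA in the values of single members was not tested.

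**Figure D4:**
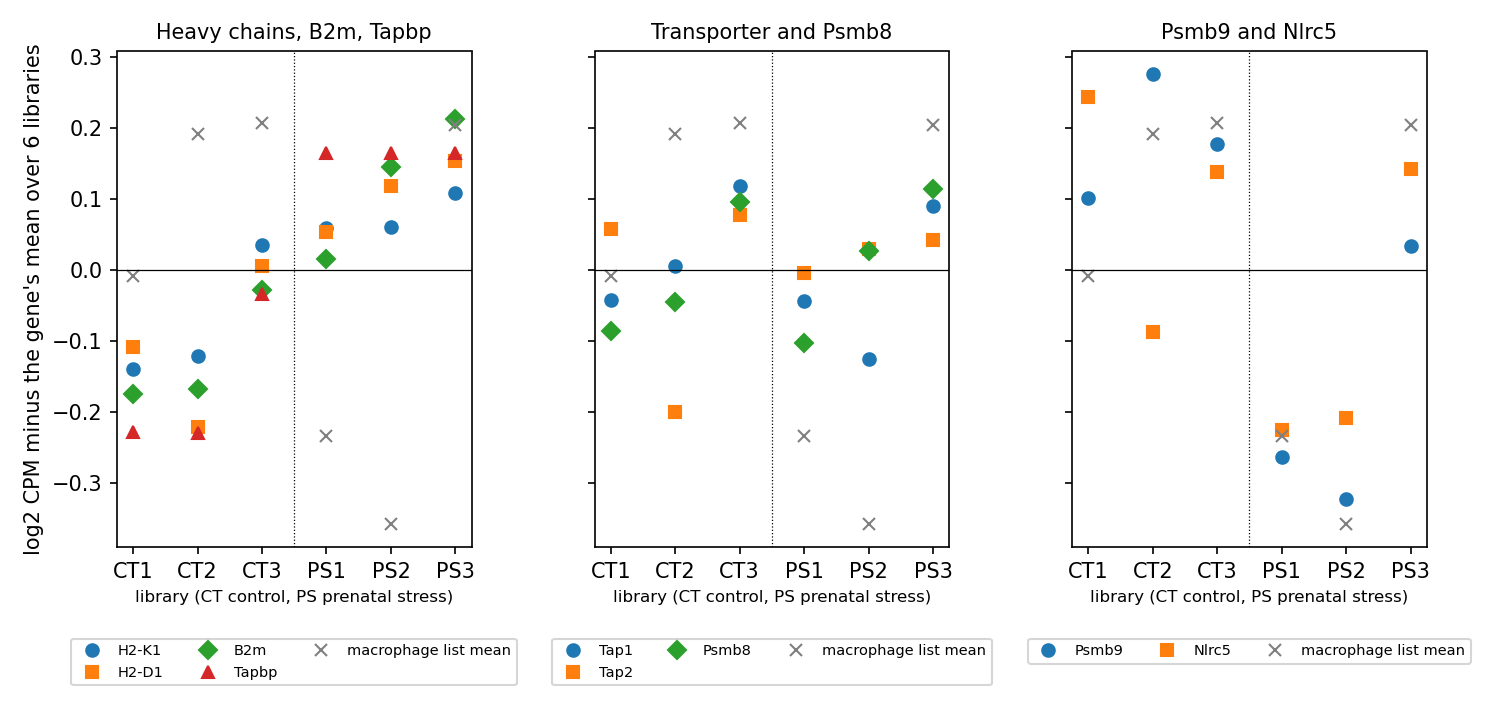
Log2 CPM of each member minus its own mean over the 6 libraries (CT control, PS prenatal stress, numbers are replicates), with the mean of the macrophage and monocyte markers as grey crosses. In the left panel all 4 genes lie above their mean in the 3 stress libraries. In the right panel Psmb9 and Nlrc5 lie below their mean in PS1 and PS2, where the macrophage markers do too. In the middle panel Tap1 lies below its mean in CT1, PS1 and PS2.

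The wider pathway was described with 8 further lists, of which 109 genes were tested. Of these, 4 rose and none fell by edgeR's test (3.67% called, against 6.19% of all genes), 105 did not pass, and the median log2 fold change was 0.01. DESeq2 called 14 higher and 3 lower, and limma-voom 4 higher and 0 lower.

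Among the class I heavy chain genes outside the classical pair, 13 of 19 in the tables were tested, 1 rose, none fell and 12 did not pass (3 higher and 2 lower at an unadjusted p under 0.05, 1 and 2 with DESeq2, 1 and 0 with limma-voom, median -0.05). The gene that rose was H2-T23, which encodes Qa-1, a nonclassical class I molecule that presents leader peptides of other class I chains to CD94/NKG2 receptors on natural killer and T cells. Its controls stood at 78.4, 76.4 and 95.8 CPM and its stress pools at 140, 144 and 135 CPM, in replicate order. Every stress pool was above every control by a wide gap. The log2 fold change was 0.74 ± 0.09 (SE), or 1.67-fold with a 95% interval of 1.46 to 1.92 (edgeR adjusted p = 0.00522). This call held in all 15 alternative fits, those without any one library included (adjusted p up to 0.0271). Of its 75-base windows 5.91% occur in other genes. H2-T22 and H2-T24, named with the genes that follow after their values were seen, were at 0.16 and 0.24 on the log2 scale and did not pass (adjusted p = 0.161 and 0.138). Cd1d1, which presents lipids to natural killer T cells, was at -0.53 (adjusted p = 0.0624), and Hfe, an iron-regulating class I-like gene, at -0.49 (adjusted p = 0.0894). Fcgrt, the neonatal Fc receptor chain and the most abundant of this list, was at 214, 259 and 244 CPM in the controls and 160, 125 and 244 CPM after stress (edgeR adjusted p = 0.223). For Fcgrt stress replicates 1 and 2 lay below the controls, and replicate 3 was within them. It was called lower by edgeR with no low-count filter (-0.45, adjusted p = 0.0378) and in 1 of 6 fits without 1 library (0.00287). With the macrophage covariate Fcgrt was at -0.09 (edgeR adjusted p = 0.584).

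None of the 15 genes of peptide loading and trimming passed with edgeR (2 higher and 1 lower at an unadjusted p under 0.05, 2 and 0 with DESeq2, 0 and 0 with limma-voom, median 0.04). The chaperone genes Hsp90ab1 (3309 ± 174 and 3185 ± 63.7 CPM) and Hspa8 (3046 ± 200 and 3130 ± 86.7 CPM) were the most abundant, and 33.0% of the windows of Hspa8 occur in other genes. The 5 genes listed as inducible proteasome and activator partners were Psmb10, itself an inducible subunit gene, Psme1, Psme2, Psme3 and Pomp. All had values below zero, from -0.11 to -0.0031. None passed with edgeR, DESeq2 or limma-voom or at an unadjusted p under 0.05. Psme1, a chain of the PA28 activator, was at 114 ± 3.78 and 105 ± 5.27 CPM, and Psme3, which encodes a nuclear activator, at 99.4 ± 2.87 and 97.6 ± 1.71 CPM. Of the 14 constitutive 20S subunits none passed with edgeR (1 higher and 3 lower unadjusted, 1 and 0 with DESeq2, 0 and 0 with limma-voom, median -0.04), with the core subunit genes Psmb1 at 139 ± 1.23 and 137 ± 4.03 CPM and Psma4 at 125 ± 6.56 and 135 ± 7.77 CPM. The 10 genes of class I transport and turnover tested did not pass with edgeR either (2 higher and 0 lower unadjusted, 2 and 0 with DESeq2, 0 and 0 with limma-voom). Vcp and Sec61a1, which act in protein extraction from and entry into the endoplasmic reticulum, had log2 fold changes of 0.03 and 0.02.

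Of the 17 genes for factors that act at class I promoters, 1 rose, none fell and 16 did not pass (2 higher and 2 lower unadjusted, 2 and 0 with DESeq2, 1 and 0 with limma-voom, median -0.0098). Irf2, an interferon regulatory factor, rose from 47.4, 40.4 and 46.1 CPM to 64.0, 67.5 and 57.2 CPM, a log2 fold change of 0.49 ± 0.08 (SE, edgeR adjusted p = 0.0152). All stress pools lay above the controls. Leaving out control pool 2 (adjusted p = 0.064) or stress pool 1 or 2 (0.0523 and 0.0651) ended the call. The NF-kB genes Nfkb1 and Rela were at 0.07 and -0.04 (adjusted p = 0.725 and 0.8). Among 10 genes of interferon receptors, their kinases and inhibitors of their signalling 1 passed, as higher, and 9 did not pass (4 higher and 0 lower unadjusted, 3 and 0 with DESeq2, 1 and 0 with limma-voom, median 0.07). That gene was Socs1, a feedback inhibitor of JAK kinases, at a low level of 1.08 ± 0.0634 and 1.81 ± 0.282 CPM (0.75 ± 0.18, edgeR adjusted p = 0.0496). Its call ended in each fit without 1 library except that without stress replicate 3 (adjusted p up to 0.171), with upper-quartile factors (0.0506), library totals (0.0579) or the macrophage covariate (0.169). The kinase genes Jak2 (236 ± 26.4 and 308 ± 62.1 CPM, adjusted p = 0.143) and Jak1 (255 ± 5.22 and 258 ± 12.4 CPM) were the most abundant. Jak2 was called higher by DESeq2 (adjusted p = 0.0437), and by edgeR with no low-count filter (0.0241) and in 1 of 6 fits without 1 library (0.0418).

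Of 25 other interferon-inducible genes 24 did not pass and 1 rose (5 higher and 2 lower unadjusted, 3 and 1 with DESeq2, 1 and 0 with limma-voom, median 0.02). Ifit3, an antiviral gene, was at 7.03, 7.28 and 7.43 CPM in the controls and 8.92, 11.2 and 12.2 CPM after stress (0.57 ± 0.12, edgeR adjusted p = 0.0285). Leaving out any one control, or stress pool 2, ended its call (adjusted p up to 0.12), and 41.1% of its windows occur in Ifit3b, so its counts are uncertain. Bst2, which encodes tetherin, was at 65.3 ± 11.8 and 73.2 ± 10.5 CPM. The chemokine gene Cxcl10 was at 58.8, 63.5 and 62.2 CPM in the controls and 44.7, 38.4 and 86.6 CPM after stress, spread to both sides of the controls.

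The 5 genes whose centred log2 CPM over the 6 libraries lay closest to the mean profile of the members were Asl, Mvk, Tkfc, Exoc6b and Zcchc24, out of 9998 genes with a mean of at least 5 CPM. Their root mean square differences from it were 0.0188 to 0.0226 on the log2 scale. The mean profile was itself nearly flat, from -0.09 in control replicate 2 to 0.12 in stress replicate 3, and none of the 5 genes passed the test.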

How the data were processed

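The authors deposited 1 table of raw read counts per library, with 55809 gene symbols and 5 rows that name no gene; those 5 rows were not used in any fit. Genes held 79.7% to 81.4% of the tallied reads, and 8.49% to 9.00% had no unique alignment and are in no gene's count. FastQC, STAR 2.4, HTSeq 0.9.1 and the builds GRCm39 and mm10 are named in the submitters' processing notes, with no role for either build. The annotation, like the strand setting of the counting, is not given in the sources used here.

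Genes were filtered with filterByExpr (minimum count 10), scaled with TMM factors and tested with edgeR 4.0.16 (glmQLFit, glmQLFTest, R 4.3.3), stress minus control, without covariates, at a Benjamini-Hochberg adjusted p of 0.05 over 16716 genes. CPM values are computed from these counts with the TMM factors. The standard error is the log2 fold change over the root of F. Ratios of subunits used exact two-sided permutation tests (SciPy 1.17.1). Alternatives were other scalings and filters, DESeq2 1.42.0, limma-voom (limma 3.58.1), a replicate block, a macrophage covariate and each library left out. Replicates of a group differed by more than sampling noise (chi-square per gene 9.81 to 41.4).

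Members and lists were chosen with earlier results of these data known. Genes named are the 9 members, the sort markers, up to 4 called genes and the 2 of highest mean CPM of each list, and the 5 closest profiles. Others are said to be chosen after their values were seen. Where genes are called most abundant, this is by CPM, which is not corrected for transcript length. Transcript lengths, overlaps and 75-base windows are from GENCODE M21 (GRCm38) by symbol, and promoters from RefSeq; Tap2 and Nlrc5 have no promoter entry there.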

Additional observations from a re-analysis of the deposited data

How the results depend on the processing

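Every member kept its direction in the 15 alternative fits except Tap1, Tap2 and Psmb8, which did so in 14, 13 and 12 of them and passed in none. Of the members, DESeq2 called 3 higher and 1 lower, the replicate block 0 higher, and library totals or no low-count filter 1 lower; without 1 library the counts were 0 to 1 higher and 0 to 1 lower. Of the other pathway genes, where the main counts were 4 higher and 0 lower, no filter gave 12 higher and 5 lower, the stricter filter 8 higher, DESeq2 14 higher and 3 lower, library totals 10 lower and the replicate block 1 lower; without 1 library there were 1 to 9 higher and 0 to 12 lower. Over all genes (725 higher, 310 lower), no filter gave 1123 and 810, DESeq2 1264 and 725, the replicate block 469 and 153, and the macrophage covariate 459 and 179. Library totals gave 553 higher and 1532 lower; without 1 library there were 168 to 1330 higher and 23 to 1317 lower, both highest without stress replicate 3. The cause of these shifts was not tested.

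The replicate number is not shown to pair pools: deviations of same-numbered pools correlated at 0.0954, -0.0188 and 0.0684. With the replicate block Tapbp was at 0.33 (adjusted p = 0.0505), Socs1 (0.0837) and Il1rl1 (0.0719) also missed the threshold, and the paired exact tests of the 3 ratios gave p = 0.25, 0.25 and 0.75 for Psmb8 to Psmb5, Psmb9 to Psmb6 and Psmb10 to Psmb7, where 3 pairs cannot go below 0.25. The ratio differences kept their sign in all alternatives: without 1 library they ran from 0.04 to 0.16, from -0.31 to -0.18 and from -0.07 to -0.02.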
